A study of Homo sapiens with 3 samples.

Results

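The genes described here are the nuclear genes of respiratory complexes II, III, IV and V, together with their assembly factors and cytochrome c. They are 60 of the 20033 protein-coding genes on chromosomes 1 to 22, X and Y, and they were taken from a fixed list of symbols, of which 8 belong to complex II, 11 to complex III, 22 to complex IV and 18 to complex V, with CYCS as the carrier between complexes III and IV. By role, 38 are subunits and 21 are assembly factors. The study sought the genes that the zinc finger protein ZBTB11 occupies on chromatin, by chromatin immunoprecipitation followed by sequencing (ChIP-seq). All libraries came from NCI-H1299, an established human lung adenocarcinoma cell line, with genotype WT, untreated, grown in DMEM with fetal bovine serum and fixed with formaldehyde. The called peaks of 2 immunoprecipitations were analysed, one for ZBTB11 and one with normal IgG as the negative control, while the Input sample was not used here. Every group consists of 1 library, so no value has a replicate check, no test was made and every comparison describes these libraries. Apart from sequencing, the study reported ZBTB11 recruitment by ChIP and quantitative PCR at several loci. These included ATPAF1 of this group, and TACO1, which is named below. Peak lists hold no measure against which the identity of the cell line could be checked.

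The respiratory chain of the inner mitochondrial membrane passes electrons from reduced substrates to oxygen and uses the energy to move protons. Complex II oxidises succinate and hands the electrons to ubiquinone, complex III passes them to cytochrome c, complex IV reduces oxygen to water, and complex V, the ATP synthase, lets protons flow back and makes ATP. Apart from complex II, each of these complexes also holds subunits encoded by mitochondrial DNA, and dedicated assembly factors insert the hemes, copper and iron-sulfur clusters and join the modules. The promoters of many nuclear genes of this group are known to carry sites for GABP, an ETS factor that recognises CCGGAAG-like sequences, and for NRF1.

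For each gene, the peak with the smallest p-value within 3 kb of any annotated transcript start was taken, and its strength is given as −log10 p, the p-value that the peak caller assigned to the summit against the local background. The number of sequenced fragments stacked at the summit was solved from the p-value and the fold enrichment, and its 95% Poisson interval covers counting error only. Amplified reads are not independent molecules, so the intervals are too narrow if duplicates were kept. The local background was at least 1.35 fragments at the ZBTB11 peaks and at least 1.55 at the IgG peaks of these genes. Shares of genes are given with 95% Wilson intervals, which reflect the number of genes only. They treat genes of 1 library as independent draws, although genes are not replicates, so their overlap or separation is not a test.

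ZBTB11 peaks lay near a start of 59 of the 60 genes (98.3%), against 87.7% of protein-coding genes, so that mere presence of a peak separates the group little from other genes. UQCRB, which encodes a small accessory subunit of complex III, was the exception, and the nearest peak lay 7722 bp from its starts. Strong peaks, with a −log10 p of 5 or more, lay at 48 genes or 80.0% (95% Wilson interval 68.2% to 88.2%), compared with 46.9% of protein-coding genes. Part of this difference goes along with base composition. Of the 60 genes, 59 had a CpG-rich start (an observed to expected CpG ratio of at least 0.6 over 500 bp), and 61.8% of all protein-coding genes with such a start had a strong peak, against 14.6% of those without. This comparison with CpG-rich genes was chosen after the data were seen. The median −log10 p of the group was 18.9, the median of protein-coding genes was 4.54, and that of protein-coding genes with a CpG-rich start was 7.39. The weakest strong gene was COX7B at 5.09 and the strongest gene below the threshold was ATP5PB at 4.29.

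A smaller number of genes had peaks from the top of the list. Peaks ranked 1 to 1000 among the 348392 peaks of the ZBTB11 list lay at 8 of the 60 genes (13.3%). The share was 6.01% of protein-coding genes and 8.12% of those with a CpG-rich start. In order of rank, these were SDHAF3 (rank 33), COX16 (101), ATP5PF (347), ATPAF1 (378), COX6B1 (559), COX8A (570), TMEM70 (676) and SDHAF2 (902). They held between 149 fragments (SDHAF2) and 470 fragments (SDHAF3). Of these 8 genes, 5 encode assembly factors and 3 encode subunits, namely ATP5PF, COX6B1 and COX8A. At the other end, the 11 peaks that were not strong held between 5 and 10 fragments.

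**Figure D1:**
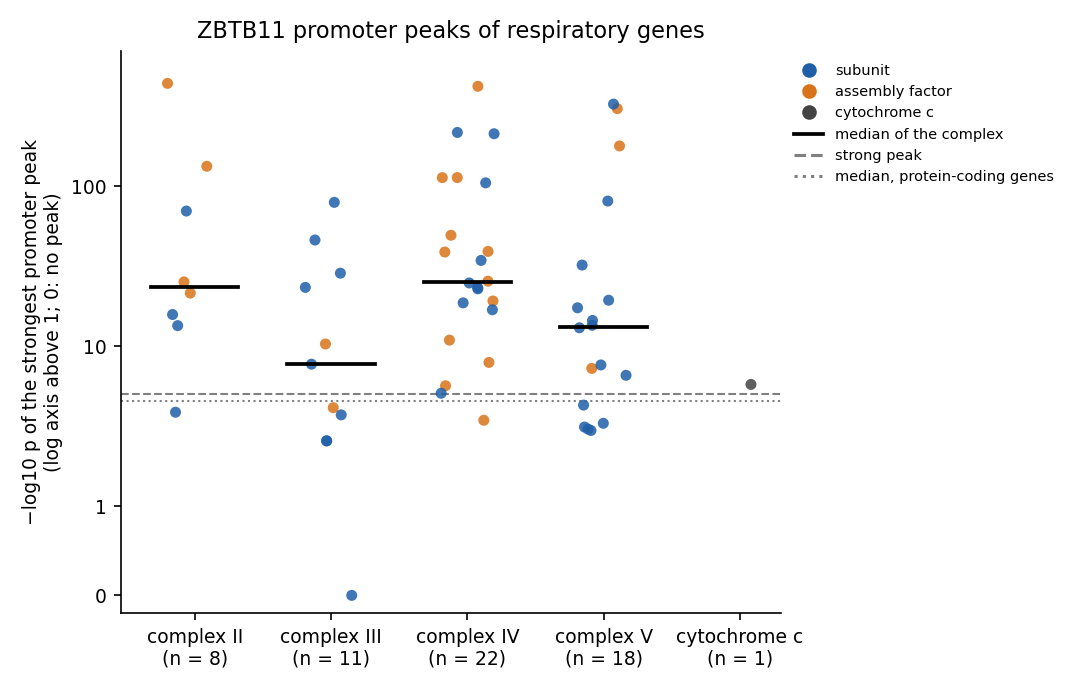
Strength of the strongest ZBTB11 promoter peak of each gene, as −log10 p on a log axis (linear below 1), by complex. Each point is 1 gene, coloured by role, black lines are the medians of the complexes (23.3, 7.73, 25.2 and 13.3 for II, III, IV and V), the dashed line is the threshold of 5 for a strong peak and the dotted line is the median of protein-coding genes (4.54). Complexes III and V hold most of the genes under the dashed line, and the point at 0 is UQCRB.

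The study gave CCGGAAG or CAGGAAG as the consensus of ZBTB11. It derived this motif de novo from the high peaks of the same ChIP-seq. The frequency of these words at strong peaks, and their relation to strength, are therefore no independent evidence. One of these words lay within 50 bp of the summit, on either strand, in 19 of the 48 strong peaks (39.6%, 27.0% to 53.7%). Equal windows 500 bp to either side held it in 5 of 96 cases (5.21%). Among strong peaks of all protein-coding genes the share was 25.2%, which lies below the interval of the group. None of the 11 peaks that were not strong held the consensus, which allows a share of up to 25.9% by the same interval. In the 19 peaks, the consensus nearest the summit lay between 4 and 44 bp from it, with a median of 18 bp, and 5 of the peaks held 2 matches. CCGGAAG was present in 15 and CAGGAAG in 7 of the 48 strong peaks, so some held both. The sites below are those of the strongest peaks with the consensus in each complex, with ATP5F1C added as the site on chromosome 10. Each sequence is read 5′ to 3′ from the hg38 reference on the strand that carries the consensus, which is in capitals.
SDHAF2: gctaggagttcCCGGAAGtgcccgcgcag
SDHD: tgctgggtgaaCCGGAAGtcgagaggcgg
UQCR11: tccaaccctcgCCGGAAGttactgtaagt
UQCRH: cggcgatctggCCGGAAGtgcggcacact
COX6B1: actactaccagCCGGAAGctgagagaggt
COX8A: ggctgcgctggCCGGAAGttctggagctg
SCO1: ttccgcttcctCCGGAAGtcggaaggagt
ATP5PF: cgctcaccggaCAGGAAGcgtctcggaga
ATP5ME: tgacctccgcaCCGGAAGcacaacctgca
ATP5F1C: agcgggggctgCAGGAAGcggctctgagg
These sites span chr11:61430093-61430121 (SDHAF2), chr11:112086785-112086813 (SDHD), chr19:1605562-1605590 (UQCR11), chr1:46303641-46303669 (UQCRH), chr19:35648300-35648328 (COX6B1), chr11:63974591-63974619 (COX8A), chr17:10697559-10697587 (SCO1), chr21:25734982-25735010 (ATP5PF), chr4:674256-674284 (ATP5ME) and chr10:7788406-7788434 (ATP5F1C). Their consensus lay 18, 29, 7, 21, 4, 21, 16, 28, 10 and 13 bp from the summit, in the same order.

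The consensus did not mark the strongest peaks of the group alone. Of the 8 genes ranked within 1000, 4 held it (50%, 21.5% to 78.5%), against 44.8% of protein-coding genes in that tier, and SDHAF3, COX16, ATPAF1 and TMEM70 did not. The shorter core CGGAA, which was looked at after these sequences had been seen, lay within 50 bp of the summit in 13 of the 29 strong peaks without the consensus (44.8%) and in 5 of 58 windows 500 bp away (8.62%). Strong peaks of protein-coding genes without the consensus held this core in 35.0% of cases, within the interval of the group (28.4% to 62.5%). The sites of SDHAF3, COX16, ATPAF1, COX15 and COX7A2, are shown with the core in capitals, to be set beside the sites above. TMEM70, which is stronger than COX15 and COX7A2, held the core as well, and its site is not printed.
SDHAF3: atcaggtcctccCGGAAacccaagctccg
COX16: gcttttgcctagCGGAAaccattcactaa
ATPAF1: accttgggcgcgCGGAAcctcggtgccgg
COX15: ggccctcaacggCGGAAagagcaatcgct
COX7A2: ccacgccggaacCGGAActacctccgagt
In hg38, these lie at chr7:97117557-97117585 (SDHAF3), chr14:70359723-70359751 (COX16), chr1:46668420-46668448 (ATPAF1), chr10:99732017-99732045 (COX15) and chr6:75243789-75243817 (COX7A2). The median −log10 p was 39.1 for strong genes of the group with the consensus and 21.5 for those without, and for all strong protein-coding genes it was 37.2 and 14.1.

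Complex II, the succinate dehydrogenase, had a peak at all 8 of its genes and a strong peak at 7 (87.5%, 52.9% to 97.8%), with a median −log10 p of 23.3. All 4 assembly factors had strong peaks, and the strongest peak of the whole group lay at one of them. SDHAF3, which assists the maturation of the iron-sulfur subunit, stood at 470 fragments (428.5 to 514.5) against 21.5 in the local background (20.9-fold enrichment, −log10 p of 438), with the peak at chr7:97117151-97118002 and its summit 115 bp upstream of the start. SDHAF2, which helps to attach FAD to the flavoprotein, followed with 149 fragments (126 to 175) and a −log10 p of 133. SDHAF4, which holds the flavinylated flavoprotein before assembly, had 35 fragments and SDHAF1, which serves the iron-sulfur clusters, had 43. The intervals of SDHAF3 and SDHAF2 overlap neither each other nor any other gene of complex II.

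The 4 structural genes of complex II were spread over a wide range. SDHD, a membrane anchor, was the strongest with 80 fragments (63.4 to 99.6) and a −log10 p of 69.9. SDHB, the iron-sulfur subunit, had 24 fragments (15.4 to 35.7) at a −log10 p of 15.8, and SDHC, the other anchor, had 19 (11.4 to 29.7) at 13.45. The intervals of SDHB and SDHC overlap, and both lie below that of SDHD. The summits of these 3 peaks lay at most 7 bp from a start. SDHA, which carries the flavin and oxidises succinate, had no strong peak, as its strongest held 10 fragments (4.79 to 18.4) at a −log10 p of 3.87, a q-value above 0.05, with the summit in an intron, 842 bp downstream of the nearest start.

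Complex III had strong peaks at 6 of 11 genes (54.5%, 28% to 78.7%) and a median −log10 p of 7.73, the lowest of the 4 complexes. None of its peaks ranked within 1000. The strongest lay at UQCR11, a small accessory subunit, with 94 fragments (76.0 to 115) and a −log10 p of 79.2. UQCRFS1, the Rieske iron-sulfur protein, had 69 fragments (53.7 to 87.3) at 46.1, and UQCRH, the hinge protein that contacts cytochrome c1, had 42 (30.3 to 56.8) at 28.6. Neighbouring intervals in this order overlap, whereas those of UQCR11 and UQCRH do not. UQCRQ, a further small subunit, followed with 33 fragments, BCS1L, which moves the Rieske protein into the complex, with 17, and CYC1, cytochrome c1, with 19 over a higher background. The CYC1 summit lay 1391 bp from the nearest start. It was 2660 bp past the start of the representative (MANE Select) transcript and downstream of that transcript. Within 1 kb of a start, the strongest CYC1 peak reached a −log10 p of 5.10.

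The genes of complex III without a strong peak included both core proteins. UQCRC2 (core protein 2) had 7 fragments (2.81 to 14.4) at a −log10 p of 3.73. UQCRC1 (core protein 1) and UQCR10, a small subunit, each had 5 fragments (1.62 to 11.7) over the lowest background, at a −log10 p of 2.57. TTC19, which clears fragments of the Rieske protein, had 9 fragments (4.12 to 17.1) at 4.13. With UQCRB, which had no peak, these are 5 genes. All 11 genes of the complex had a CpG-rich start. Their median observed to expected ratio was 0.799, against 0.824, 0.875 and 0.837 in complexes II, IV and V. Whether the ratio goes along with the low values was not tested.

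Complex IV, the cytochrome c oxidase, had strong peaks at 21 of 22 genes (95.5%, 78.2% to 99.2%), and its median −log10 p of 25.2 was the highest of the 4 complexes. All 10 subunit genes had one. COX6B1, which faces cytochrome c, held 301 fragments (268 to 337) at a −log10 p of 216, and COX8A held 222 (194 to 253) at 212, so that the intervals of the fragments do not overlap although the strengths are close. The background was 23.4 fragments at COX6B1 and 9.73 at COX8A. COX7A2 came next among the subunits with 118 fragments (97.7 to 141) at 105. COX7C, COX5B, COX6C, COX6A1, COX4I1 and COX5A held between 24 and 42 fragments, and all neighbours in their order overlap. COX7B, with 9 fragments (4.12 to 17.1), lay just above the threshold.

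Among the 12 assembly genes of complex IV, 11 had strong peaks. COX16, which takes part in the assembly of the COX2 module, stood at 449 fragments (408 to 492.5) and a −log10 p of 419.9, rank 101, with the peak at chr14:70359393-70360233. Heme A synthesis was represented by COX15, with 132 fragments (110 to 156.5) at 113, and COX10, with 59 fragments (44.9 to 76.1) at 49.3, whose intervals do not overlap. Copper delivery had 3 strong genes of 4. SCO1 held 127 fragments (106 to 151) at 113, COX17 held 34 (23.6 to 47.5) at 25.5, SCO2 held 19 (11.4 to 29.7) at 10.9, and COX11, which serves the copper site of COX1, was the only complex IV gene without a strong peak, with 7 fragments (2.81 to 14.4) at 3.45. SCO1 and SCO2 are relatives that both bring copper to COX2, and their intervals lie far apart. Of the remaining genes, SURF1 (59 fragments) and COX20 (55) stood above COX14 (32), COX18 (13) and LRPPRC (12). LRPPRC, which stabilises mitochondrial messenger RNAs, had a −log10 p of 5.67 with 14 separate peaks near its starts, the most of any gene in the group. It also had the most annotated starts of the group, 50, which enlarges the region in which its peaks were counted.

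**Figure D2:**
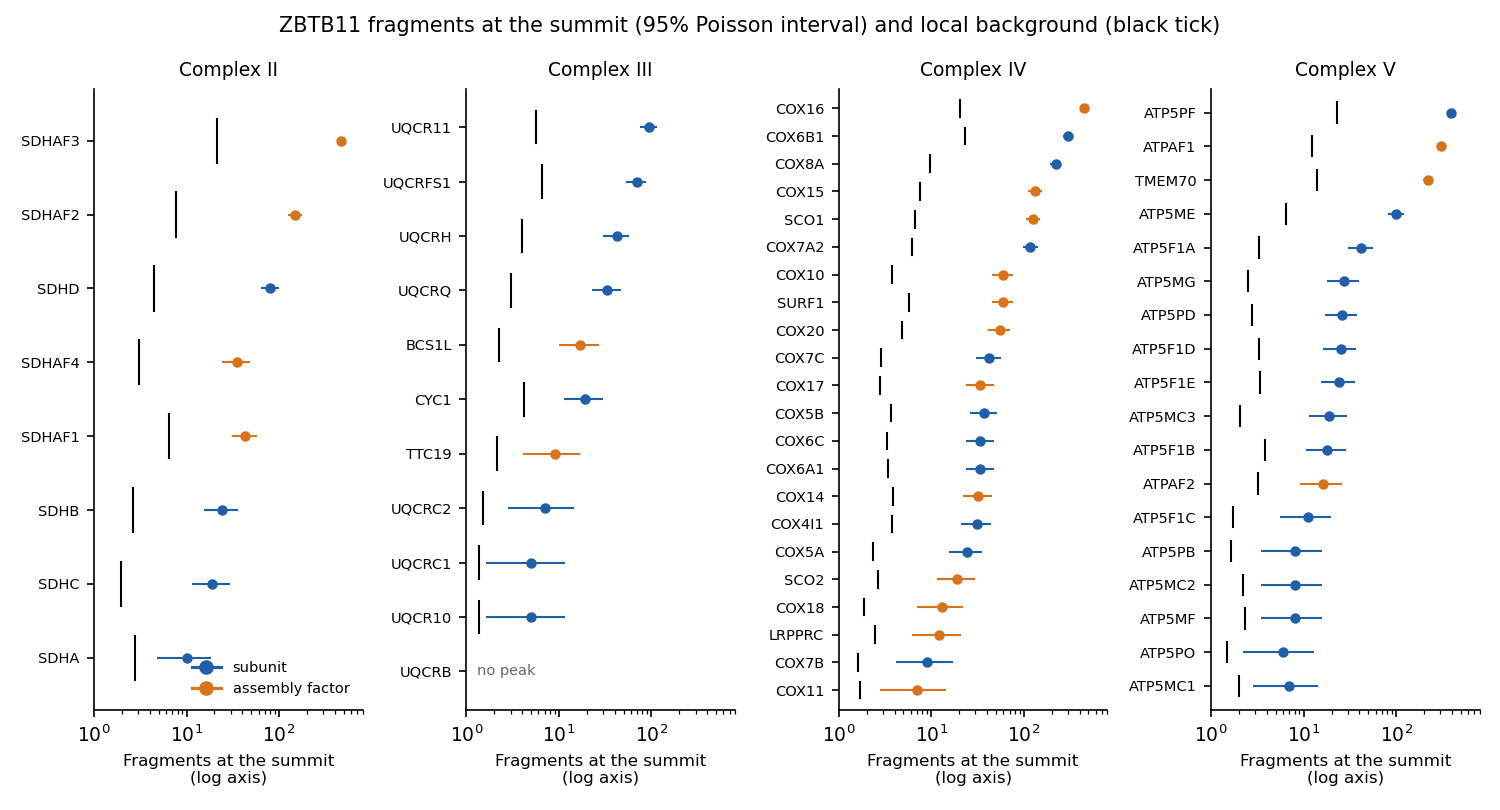
ZBTB11 fragments at the summit of the strongest promoter peak of every gene in complexes II to V, on a log axis, sorted by −log10 p within each complex. Points are fragment counts with 95% Poisson intervals, blue for subunits and orange for assembly factors, and black ticks are the local background. The counts run from 5 fragments (UQCRC1, UQCR10) to 470 (SDHAF3), and the background rises with them, from 1.35 to 23.4 fragments.

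Complex V, the ATP synthase, had strong peaks at 13 of 18 genes (72.2%, 49.1% to 87.5%) with a median −log10 p of 13.3. Its values varied between and within the parts of the enzyme. These parts hold 3 to 5 subunit genes each, and the Wilson intervals of their strong shares overlap. They ran from 56.6% to 100% in the F1 head and from 6.15% to 79.2% in the c ring. In the soluble F1 head all 5 genes had strong peaks, none of them ranked within 1000. ATP5F1A, the alpha subunit, was the strongest with 42 fragments (30.3 to 56.8) at 32.1, and the catalytic ATP5F1B had 18 (10.7 to 28.4) at 7.64. The central stalk genes ATP5F1D, ATP5F1E and ATP5F1C had 25, 24 and 11 fragments. The ATP5F1A peak lies near an alternative start far upstream of the main one, next to HAUS1. At the MANE Select start, the representative transcript, ATP5F1A had 30 fragments at a −log10 p of 21.75.

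The peripheral stalk, which keeps the head from turning, held the largest and the smallest fragment counts of complex V. The smallest −log10 p of the complex lay outside the stalk, at ATP5MC1 (2.98). ATP5PF, subunit F6, stood at 390 fragments (352 to 431) and a −log10 p of 325, rank 347, with the peak at chr21:25734645-25735975 and the summit 3 bp from a start. ATP5PF lies head to head with GABPA, which encodes a subunit of GABP, and the peak covers starts of both genes. ATP5PD (subunit d) had 26 fragments (17 to 38.1) at 17.4. ATP5PB (subunit b) had 8 (3.45 to 15.8) at 4.29 and ATP5PO (OSCP) had 6 (2.20 to 13.1) at 3.04, and neither was strong. The ATP5PO summit lay in an intron, 2547 bp from a start.

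In the membrane part, the genes ATP5MC1, ATP5MC2 and ATP5MC3 encode the same mature c subunit of the proton-carrying ring from separate loci. ATP5MC3 had 19 fragments (11.4 to 29.7) at a −log10 p of 13. ATP5MC2 had 8 fragments (3.45 to 15.8) at 3.30 and ATP5MC1 had 7 (2.81 to 14.4) at 2.98. ATP5MC3 alone was strong, but its interval overlaps those of the other genes. Of the small subunits, ATP5ME (subunit e) held 100 fragments (81.4 to 122) at 80.7, ATP5MG (subunit g) held 27 (17.8 to 39.3) at 19.4, and ATP5MF (subunit f) held 8 (3.45 to 15.8) at 3.13 with the summit at a start. ATP5MF was also the one gene of the group without a CpG-rich start, at an observed to expected ratio of 0.582.

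All 3 assembly factors of complex V had strong peaks. ATPAF1, the chaperone of the beta subunit, stood at 307 fragments (274 to 343) and a −log10 p of 304.5, and its fold enrichment of 23.2 was the highest of the group. ATPAF2, the chaperone of the alpha subunit, had 16 fragments (9.14 to 26.0) at 7.27. TMEM70, needed for the assembly of the c ring, had 221 fragments (193 to 252) at 178, but the summit lay 9 bp from a start of its neighbour ELOC and 276 bp from an upstream start of TMEM70. At the MANE Select start of TMEM70 the strongest peak had a −log10 p of 4.15 and was not strong. CYCS, the carrier that links complexes III and IV, had 9 fragments (4.12 to 17.1) at 5.78, with the summit 1 bp from the start.

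Compared by complex, strong peaks were most frequent in complex IV, then II, V and III. The Wilson intervals of complexes III and IV overlap slightly (78.7% against 78.2%), and all other pairs overlap more, so with these gene numbers no order other than that between III and IV comes near to separation. Complex III was lowest in each of the 7 other settings tried, and complex IV was highest in all but one of them. The exception counted a peak only for the gene whose start was nearest to the summit, where complex II stood at 87.5% and complex IV at 81.8%, followed by V at 55.6% and III at 27.3%. Restricted to peaks of at least 50 fragments, the shares were 37.5%, 18.2%, 40.9% and 22.2% for complexes II, III, IV and V, against 14.8% of protein-coding genes.

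Compared by role, assembly factors had strong peaks at 19 of 21 genes (90.5%, 71.1% to 97.3%) and subunits at 28 of 38 (73.7%, 58.0% to 85%). The median −log10 p was 25.5 and 16.3, and peaks ranked within 1000 lay at 5 assembly factors (23.8%) and 3 subunits (7.89%). Within complexes, the assembly factors of complex II had a median of 79.1 against 14.6 for its subunits, and those of complex V 178 against 13. In complex IV the medians were 32.1 and 24, and in complex III, with 2 assembly factors, 7.23 and 7.73. The complex V value is that of TMEM70 alone among 3 genes, and with MANE Select starts only, the assembly factors of complex V had a median of 7.27 against 13, so the order turned. With peaks counted only for the gene with the nearest start, it was 4.15 against 7.64 in complex V and 9.42 against 24 in complex IV, again with the assembly factors lower, while it was 79.1 against 14.6 in complex II as before and 3.1 against 2.57 in complex III. The intervals of the shares overlap. The order of the shares also turned when a peak was counted only for the gene with the nearest start, which left 13 assembly factors (61.9%) and 25 subunits (65.8%), against 35.5% of protein-coding genes.

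Some of the genes share promoters with a neighbour. Of the 48 strong summits, 10 lay nearest to a start of another gene (20.8%, 11.7% to 34.3%), against 26.9% for strong peaks of protein-coding genes, which lies within that interval. These were UQCRFS1 (nearest to UQCRFS1-DT), UQCRH (LRRC41), BCS1L (ZNF142), COX10 (COX10-DT), COX20 and ATP5F1E (lncRNAs), SCO1 (ADPRM), ATP5F1A (HAUS1), ATPAF2 (GID4) and TMEM70 (ELOC). For SCO1 the neighbour was 5 bp and the gene itself 47 bp from the summit, and for BCS1L the distances were 6 and 106 bp, so 1 peak covers both starts. Counting only summits nearest to the gene itself left 39 of 60 genes with a strong peak (65.0%). A protein-coding start on the opposite strand lay within 1 kb of 18 of the 48 strong summits (37.5%, 25.2% to 51.6%), against 23.3% for strong peaks of protein-coding genes. Partners included TIMM8B, a mitochondrial import gene, for SDHD, SURF2 for SURF1, CUTC for COX15, EMC8 for COX4I1, KCTD2 for ATP5PD, MYL5 for ATP5ME, CPSF7 for SDHAF2 and TEX38 for ATPAF1. At such promoters a peak cannot be assigned to 1 of the genes. Counted over all genes, strong or not, such an opposite start was found for 36.7% of the group and 13.2% of protein-coding genes. The share was 38.3% for complex I genes and 32.1% for mitochondrial ribosomal protein genes, so it is not particular to the group.

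Most summits lay close to a start. The median distance to the nearest start of the gene was 53 bp for its strong peaks and 134 bp for those that were not strong, and it was 120 bp for strong peaks of protein-coding genes. Within 200 bp of a start lay 39 of 48 strong summits (81.2%, 68.1% to 89.8%), against 63.1% for strong peaks of protein-coding genes. Over all peaks, strong or not, the median distance was 69 bp in the group and 258 bp for protein-coding genes. It was 80 bp for complex I genes and 80 bp for mitochondrial ribosomal protein genes, so short distances are not particular to the group. Relative to the representative transcript, 31 strong summits were upstream, 5 in the 5′ UTR, 7 in an intron, 4 in a coding exon and 1, that of CYC1, downstream. Strong peaks were 432 to 1782 bp wide, with a median of 845 bp, close to the 865 bp of strong peaks of protein-coding genes.

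**Figure D3:**
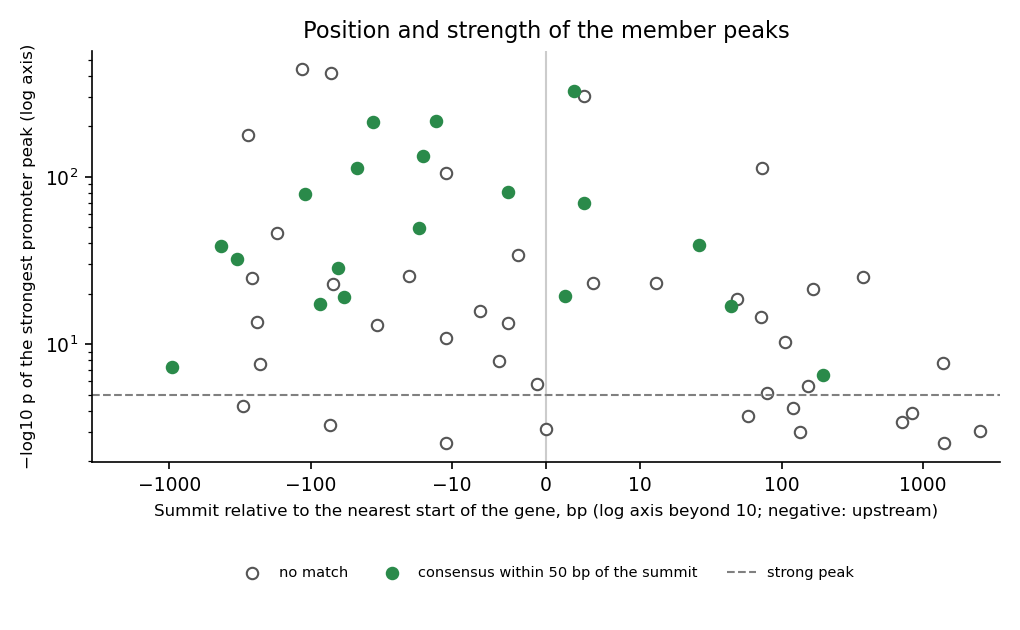
Position of the summit relative to the nearest start of the gene in bp (log axis beyond 10 bp on either side, negative upstream) and −log10 p on a log axis, for the 59 genes with a peak. Filled points held the consensus within 50 bp of the summit and open points did not, and the dashed line marks a strong peak. All 19 filled points lie above the line, and of the 11 points below it those of SDHA, UQCRC1, COX11 and ATP5PO lie farthest downstream of a start.

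The RefSeq promoters (GRCh38.p14, 250 bases before to 50 after the start) of 49 of the 60 genes were searched on both strands for 6 words. CCGGAAG was present in 21 (42.9%, 30% to 56.7%), against 14.4% of the matched protein-coding genes and 10.3% of all RefSeq promoters. All 21 of these genes had a strong ZBTB11 peak, as did 19 of the 28 without the word. Among protein-coding genes the shares were 84.6% and 43.2%. The genes include SDHB, UQCRQ, COX4I1, COX5B, COX6A1, COX15, COX17 and SDHAF3, in which the word lay in the promoter but not within 50 bp of the summit. GCATGCGC, a word of the NRF1 type, was present in 12 (24.5%, 14.6% to 38.1%), against 4.24% of protein-coding genes. AAGATGGC, of the YY1 type, was present in 7 (14.3%), against 3.96%. CAGGAAG (10.2% against 12.6%), GGGCGG (61.2% against 59.3%) and CCAAT (36.7% against 36.6%) had the background within their intervals. Of the 7 genes with AAGATGGC, 4 had a strong peak, and UQCRC1, ATP5PB and ATP5PO did not. The words are descriptions of these windows and were not tested as sites. CCGGAAG, GCATGCGC and GGGCGG each hold a CpG. Of the 60 genes 98.3% had a CpG-rich start, against 68.4% of protein-coding genes, and the shares of the words were not compared with CpG-rich promoters. The promoters of SDHC, UQCRB, CYC1, COX6C, COX11, SCO2, ATP5F1B, ATP5F1D, ATP5MC3, ATP5MF and TMEM70 were not analysed here.

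Complex IV has subunits with a widely expressed and a tissue-restricted isoform, and 6 such pairs were set side by side. The widely expressed gene, which is the one in the group, was the stronger in 5 of 6 pairs. COX4I1 had 31 fragments at a −log10 p of 18.7 and COX4I2, known from lung, had 6 at 1.85. COX6A1 had 34 fragments at 22.8, while COX6A2, the form of heart and skeletal muscle, had 4 at 1.90. COX7A2 had 118 fragments at 105, against 11 at 2.55 for COX7A1, the muscle form. COX6B1 and COX8A, among the strongest genes of the complex, faced COX6B2 and COX8C, which had no peak near a start. The pair of COX7B ran the other way, since COX7B had 9 fragments at 5.09 and COX7B2 had 54 at 39.7, with a summit 58 bp upstream of its start and the consensus within 50 bp. Of the 6 restricted genes 3 had a CpG-rich start, whereas all 6 of their partners did. COX6B2, with a ratio of 0.786, was CpG-rich and had no peak, and COX7B2, at 0.573, was not and had a strong one.

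**Figure D4:**
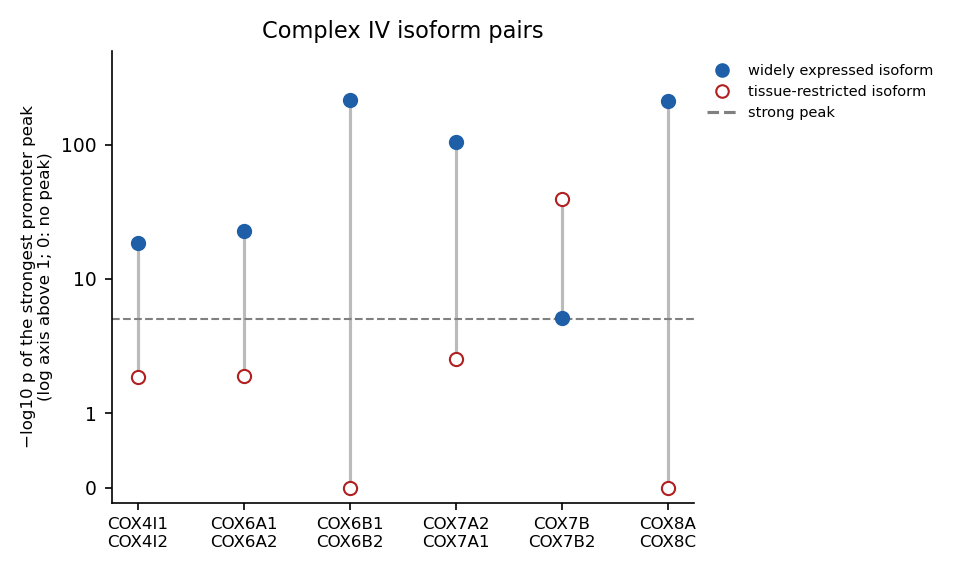
Strongest ZBTB11 promoter peak of 6 complex IV isoform pairs, as −log10 p on a log axis (linear below 1, 0 for no peak). Filled points are the widely expressed isoform, open points the tissue-restricted isoform and the dashed line the threshold for a strong peak. In 5 pairs the filled point is higher, and for COX7B and COX7B2 the open point is.

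Further genes of complexes III to V, 29 accessory and assembly genes listed by their role, had a similar share of strong peaks and a higher share of top-ranked ones. Of these, 23 had a strong peak (79.3%, 61.6% to 90.2%) and 9 a peak ranked within 1000 (31.0%, against 13.3% in the group of 60), and their median −log10 p was 23.5. The strongest were HIGD2A, TACO1, TMEM242 and UQCC6, with 495, 454, 486 and 452 fragments. TACO1 is the translational activator of COX1, and UQCC6 serves the assembly of complex III. The weakest was UQCC2, another complex III assembly gene, with 8 fragments at a −log10 p of 3.03. Assembly genes of complex III thus ranged from UQCC6 and UQCC1 (408 fragments) to UQCC2 and TTC19. For comparison, 34 of 47 complex I genes (72.3%, 58.2% to 83.1%) and 57 of 78 mitochondrial ribosomal protein genes (73.1%, 62.3% to 81.7%) had a strong peak, with medians of 12.6 and 10.4. Peaks ranked within 1000 lay at 8 complex I genes (17%) and 20 mitochondrial ribosomal protein genes (25.6%), against 8 in the group of 60 (13.3%). These top-ranked shares rest on few genes and have no interval, and no difference between them was tested, including that of the 29 further genes. The intervals of the strong shares overlap that of the group of 60. Whether the frequency of strong peaks differs between these sets of nuclear genes for mitochondrial proteins was not tested.

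Beyond the promoters, more than 3 kb from any start, the gene bodies of the 60 genes held 114 ZBTB11 peaks, of which 0 were strong. Strong gene-body peaks were rare throughout, with 1.17% of 133984 such peaks and 6.44% of protein-coding genes, so the 0 is not a result about these genes.

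The IgG list held peaks on chromosomes 1, 10 and 21 and on 1 further chromosome without genes of the group, so it offers a control for 10 of the 60 genes. An IgG peak lay near a start of 8 of these 10, against 68.7% of protein-coding genes on the same chromosomes. None of the 8 was strong or had a q-value of 0.05 or less, but such IgG peaks were rare at any gene of these chromosomes (1.99% strong, 3.02% by q-value), so nothing about the 10 genes can be read from it. The 8 peaks held 5 to 8 fragments, and none overlapped the ZBTB11 peak of the gene. At ATP5PF, ATPAF1, COX15, COX20 and SDHB the ZBTB11 peak held 390, 307, 132, 55 and 24 fragments and the strongest IgG peak 6, 5, 8, 6 and 8. UQCRH and SDHC had 42 and 19 ZBTB11 fragments and no IgG peak. At ATP5F1C (11 and 8), ATP5PB (8 and 5) and ATP5PO (6 and 7), the Poisson intervals of the libraries overlap widely, and at SDHB they overlap slightly. ATP5F1C was strong by its p-value, yet its ZBTB11 count was not separated from the count of the IgG peak near its starts. These summits lay at different positions, 230 bp (ZBTB11) and 2334 bp (IgG) downstream of the representative start. Counts of the libraries were not adjusted here for depth, so they do not compare the signal of both antibodies at the same site. For the other 50 genes the list gives no control, and whether an IgG signal lies under their peaks was not tested.

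**Figure D5:**
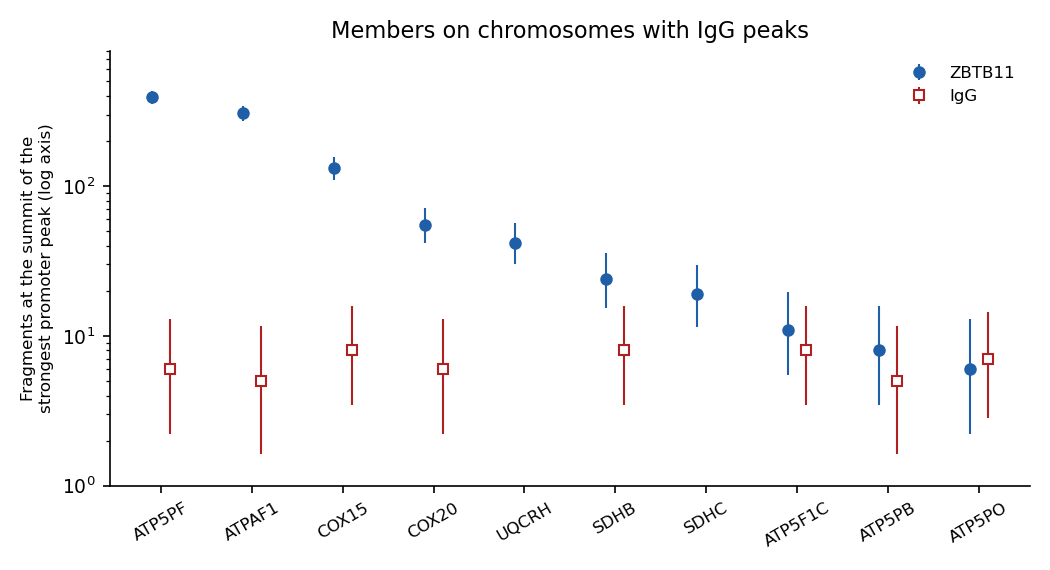
Fragments at the summit of the strongest promoter peak in the ZBTB11 library (filled circles) and the IgG library (open squares) for the 10 genes on chromosomes 1, 10 and 21, on a log axis with 95% Poisson intervals. IgG counts lie between 5 and 8 throughout and are missing for UQCRH and SDHC. The ZBTB11 counts fall from 390 at ATP5PF to 6 at ATP5PO, and the intervals of both antibodies overlap at ATP5F1C, ATP5PB, ATP5PO and SDHB.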

How the data were processed

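Sample titles gave the groups. The authors used BWA to align paired-end reads to hg38, and MACS, at a p-value below 0.05 and on each library alone, to call the peaks. The deposited layout is that of later MACS releases, so the release is not certain. The fold enrichment is the ratio of summit to local background deposited by the authors. Strengths are the −log10 p and −log10 q that the authors deposited. The deposited score, 10 times the −log10 p, was not used.

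Starts came from GENCODE release 44. Fragments and background were solved under a Poisson background with a pseudocount of 1, and 99.96% of 103985 solutions lay within 0.001 of the deposited −log10 p. The scripts were tested on simulated data. Windows of 50 bp around summits were searched on both strands. Tools were Python 3.11.15, numpy 2.4.6, scipy 1.17.1, pandas 2.3.3, pysam 0.24.0, matplotlib 3.10.9 and samtools 1.23.1. Genes named with values were the 3 strongest and 2 weakest of each complex, CYCS, those on chromosomes 1, 10 and 21, those without a strong peak, the isoform pairs and the c subunit genes, and others were added after their values were seen. The genes, lists and thresholds were chosen with earlier results of these data known.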

Additional observations from a re-analysis of the deposited data

How the results depend on the processing

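There were 19 results and 94 alternative values, of which 75 held by the rules used (counts within 1.5 times, medians and shares within the 95% interval of the reported value) and 19 did not. Requiring at least 50 fragments left 18 genes with a strong peak, namely 3, 2, 9 and 4 in complexes II, III, IV and V, or 8 subunits and 10 assembly factors. Rank within 5000 left 7 genes of complex V and 18 subunits, and summits nearest to the gene itself left 3 genes of complex III. The consensus rose to 56.2% of strong peaks with 100 bp on each side. At a q-value of 0.05 or less, 0 of the 10 genes with an IgG control had an IgG peak. The share of protein-coding genes with a strong peak, 46.89%, was 61.82% with a CpG-rich start, 43.36% at MANE Select starts, 35.53% for summits nearest to the gene itself, 23.63% for rank within 5000, 14.78% for at least 50 fragments and 55.28% for a q-value of 0.05 or less, and the CpG-rich share was 64.8% at a ratio of at least 0.8. Seeing the data came before the choice of these background values. No paired analysis was possible because 1 library makes up each group. With 1 library, the depth limits the weak end most, since 5 fragments have an interval of 1.62 to 11.7.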
